A study of Mus musculus with 6 samples.

Results

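The matrix metalloproteinase (MMP), ADAMTS and TIMP families were examined in mesenchymal stromal cells (MSCs) from mouse bone marrow. Members were taken by gene symbol (Mmp, Adamts, Adamtsl or Timp followed by a number), which gave 51 of the 55401 genes in the deposited table: 23 MMP, 19 ADAMTS, 5 ADAMTS-like and 4 TIMP genes. The study compared NLRP3-/- MSCs with WT MSCs of the strain labelled C57/B6J, and all 6 libraries analysed here, 3 knockout and 3 WT, came from cultures exposed to 3 µg/mL lipopolysaccharide (LPS) for 24 h. LPS, from the outer membrane of Gram-negative bacteria, is recognised by TLR4, and the product of Nlrp3 senses cell damage and nucleates an inflammasome, on which caspase-1 becomes active. Because every library was exposed to LPS, the comparison is between genotypes under LPS and does not measure the response of either genotype to it. The cells were flushed from the femur and grown in serum-containing medium. The titles number the libraries of each genotype Day 1, 2 and 3, while the treatment label reads Day 1 for all 6 and the protocol gives 24 h of LPS; what the day in the titles stands for is not stated. If the libraries of a genotype differ in day, the means, SDs and p-values below run over days. The labels give neither the number of animals or starting cultures behind the 3 libraries of a genotype nor how the knockout was made. The p-values therefore reflect the variation among these 6 libraries alone, and that variation may be technical; genotype and starting culture cannot be told apart.

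MMPs are zinc-dependent endopeptidases that are made as inactive precursors and, once activated, cleave collagens, gelatin, laminins, growth factors and other precursors. ADAMTS enzymes are secreted zinc proteases with thrombospondin repeats that cleave proteoglycans such as aggrecan and versican or trim procollagens, while the ADAMTS-like proteins keep the repeats but lack the protease domain. TIMPs are small inhibitors that occupy the active site of MMPs, and TIMP3 also inhibits several ADAM and ADAMTS enzymes. Stromal cells and macrophages of the marrow both make members of these families.

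The libraries held 53157580 to 66298470 estimated counts, about 4 for each fragment. Nlrp3 had 0 estimated counts in each knockout library, against 730, 502 and 444 in WT replicates 1, 2 and 3. Libraries of the same genotype correlated at 0.973 to 0.985 over genes, as log2(FPKM + 1), and libraries of different genotypes at 0.943 to 0.952, so that no library stood apart from its group. Of 30 macrophage markers 26 were tested and all 26 were higher in the knockout libraries. Over all tested genes 10.4% were called higher and 9.20% lower. The marker lists were chosen with earlier results of these data known, so that their counts are descriptive. Aif1 and Trem2 passed the expression filter (an FPKM of 1 in at least 3 libraries) through the knockout alone, which built in their direction, and the other 24 did not depend on 1 genotype. The 26 had a median log2 fold change of 0.94, and the summed FPKM of the 30 lay between 1816 and 2064 in the knockout and between 786 and 892 in WT libraries. None of the 30 was at 0 in all libraries. Of the 4 below the filter, edgeR called Ptprc (CD45) higher, at 0.843 FPKM in the knockout and 0.303 in WT, and did not call Mrc1 (0.760 in the knockout and 0.683 in WT), Mertk (0.770 in the knockout and 0.570 in WT) or Cd86 (0.707 in the knockout and 0.650 in WT). Of 19 tested stromal markers 10 fell and 5 rose, with a median log2 fold change of -0.38 and a summed FPKM of 2189 to 2405 in the knockout and 3167 to 3501 in WT libraries. Stromal markers moved strongly both ways. Those that fell included Thy1 (11.8 ± 1.2 FPKM in the knockout and 133.7 ± 6.2 in WT; SD, n = 3 each) and Pdgfra (2.96 ± 0.23 FPKM in the knockout and 30.2 ± 1.7 in WT), with Ly6a and Twist2 (log2 fold changes -1.95 and -1.92). Those that rose included Nes (33.7 ± 1.2 FPKM in the knockout and 11.1 ± 0.5 in WT) and Nt5e (2.35 ± 0.27 FPKM in the knockout and 0.183 ± 0.068 in WT). Nt5e and Cd200 passed the filter through the knockout libraries alone, and of the other 17 tested stromal markers 10 fell and 3 rose. Endothelial markers summed to at most 0.3 FPKM in a knockout and 0.8 in a WT library, and none passed the filter. Of 13 granulocyte markers 3 were tested, of which Csf3r rose, Camp fell and S100a8 was higher in the knockout, the only genotype through which it passed the filter. The defining markers Elane, Ngp, Cxcr2, Retnlg and Cebpe were at 0 in all libraries. The summed FPKM of the 13 was 12.3 to 17.1 in the knockout and 11.3 to 11.7 in WT libraries. Of 9 osteoclast markers 4 were tested, of which Itgb3 and Acp5 fell and Nfatc1 and Ctsk were not called, with a summed FPKM of 41.1 to 48.9 in the knockout and 43.4 to 44.8 in WT libraries. In bulk RNA, fewer cells of a type and less RNA per cell cannot be told apart, and the part that the mix of cells has in the results below was not tested.

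Promoter sequences from RefSeq (GRCm38.p6, 250 bases before to 50 after each annotated start) were matched to 36 of the 51 members. The other 15 had no sequence and were not searched, among them Mmp9, Mmp2, Mmp19, Adamts4, Adamts5, Adamts7 and Adamts10. The sequences are shown because they split the 36 matched members by position. The 10 MMP genes of chromosome 9 (Mmp13, Mmp12, Mmp1b, Mmp3, Mmp1a, Mmp10, Mmp8, Mmp27, Mmp20 and Mmp7) lie within 427.1 kb, from position 7272514 to 7699585 of GRCm38. Of these 10 genes, 8 had the AP-1 motif TGANTCA, which reads the same on both strands and is the sequence that Fos and Jun dimers bind, against 0 of the other 26 matched members and 8.97% of all 27025 genes in the table. The same 8 genes had the letters TATAAA on their own strand, against 3 of the other 26 members and 9.77% of all genes, and in these 8 promoters TATAAA began 19 to 48 bases after the start of the AP-1 motif. Against the annotated start, TATAAA began 16 bases before it in Mmp13, 7 before in Mmp3, 29 before in Mmp10 and 4 after in Mmp12. A gene counted if any of its annotated starts matched, and the first start of Mmp12 and the second of Mmp7 had neither motif. None of the 10 had a GC box (GGGCGG on either strand), against 22 of the other 26 and 38.2% of all genes. The windows below run from 110 bases before to 20 after the start, 5′ to 3′ on the plus strand. Capitals mark AP-1 motifs, the letters TATAAA and GC boxes. Mmp13 (chr9:7272404-7272533), Mmp12 (chr9:7347264-7347393, the second of its annotated starts), Mmp3 (chr9:7445712-7445841) and Mmp10 (chr9:7502232-7502361) are the cluster genes with the AP-1 motif that passed the expression filter. Mmp8 (chr9:7558319-7558448) passed it without a match, and Timp1 (chrX:20870056-20870185) and Timp3 (chr10:86300302-86300431) stand for the GC box promoters.
Mmp13: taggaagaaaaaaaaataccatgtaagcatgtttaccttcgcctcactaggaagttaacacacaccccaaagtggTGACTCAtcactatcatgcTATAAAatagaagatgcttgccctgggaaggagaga
Mmp12: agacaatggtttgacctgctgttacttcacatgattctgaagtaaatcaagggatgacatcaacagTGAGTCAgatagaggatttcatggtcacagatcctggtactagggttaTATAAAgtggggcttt
Mmp3: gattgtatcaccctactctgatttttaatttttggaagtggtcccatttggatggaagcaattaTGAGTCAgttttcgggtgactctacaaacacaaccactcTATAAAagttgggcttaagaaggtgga
Mmp10: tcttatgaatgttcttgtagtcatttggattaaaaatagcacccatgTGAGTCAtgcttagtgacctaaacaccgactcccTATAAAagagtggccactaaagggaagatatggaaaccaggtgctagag
Mmp8: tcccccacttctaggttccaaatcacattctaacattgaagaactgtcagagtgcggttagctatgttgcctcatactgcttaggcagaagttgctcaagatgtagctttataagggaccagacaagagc
Timp1: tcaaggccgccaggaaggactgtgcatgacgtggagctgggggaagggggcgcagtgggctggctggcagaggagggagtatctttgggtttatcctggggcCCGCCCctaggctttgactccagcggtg
Timp3: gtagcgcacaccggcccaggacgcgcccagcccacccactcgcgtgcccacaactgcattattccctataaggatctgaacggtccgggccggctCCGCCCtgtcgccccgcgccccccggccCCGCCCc
A match is a description of the letters and not a measurement of binding. Of the 4 tested cluster genes with the AP-1 motif, Mmp13 and Mmp3 were higher in the knockout and Mmp12 and Mmp10 were not called. Mmp8, the tested cluster gene with no match, was higher, but it passed the filter through the knockout libraries, which built in its direction. Whether the motif goes with the difference between genotypes was not tested.

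Expression was compared as FPKM (fragments per length of transcript and depth of the library), which is a level per length. A gene was tested if it reached an FPKM of 1 in at least 3 of the 6 libraries. A log2 fold change is the knockout mean less the WT mean of log2(FPKM + 1), given with its SE; for genes of low level this scale makes a change look smaller than it is. Unless edgeR or DESeq2 is named, adjusted p-values are those of limma, adjusted by Benjamini-Hochberg over all 12136 tested genes, with a threshold of 0.05. Of the 51 members 30 were tested, of which 13 were higher and 8 lower in the knockout and 9 were not called. Over all tested genes 10.4% were called higher and 9.20% lower, 19.6% in all. The median log2 fold change of the 30 was 0.24, against 0.0051 over all tested genes. Mmp8 passed the filter through the knockout libraries and Adamts9 through the WT libraries alone, so that a difference was built into their selection. Mmp17 reached an FPKM of 1 in 3 knockout and 2 WT libraries, so that the filter may have favoured its direction. Of the other 27 tested members 11 were higher and 7 lower. With edgeR on the estimated counts 39 members were tested, of which 17 were higher and 8 lower, against 8.48% and 8.12% of all genes in that test. The higher members include Mmp24, which had no estimated count in WT and could enter that test only through the knockout. A called log2 fold change of at least 1 in either direction was found for 6 members (Timp3, Mmp13, Mmp8, Mmp3, Mmp9 and Adamts7) and for 4.32% of all tested genes. The 3 knockout and 3 WT values did not overlap for 26 of the 30, against 36.7% of all tested genes. By family, all 3 tested TIMPs and 7 of 14 MMPs were higher, with 2 MMPs lower. Of 10 ADAMTS genes 6 were lower and 2 higher. The higher MMPs include Mmp8 and the lower ADAMTS genes include Adamts9, whose directions were built in by the filter. The higher MMPs also include Mmp17, whose direction the filter may have favoured. Of 3 tested ADAMTS-like genes 1 was higher.

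**Figure D1:**
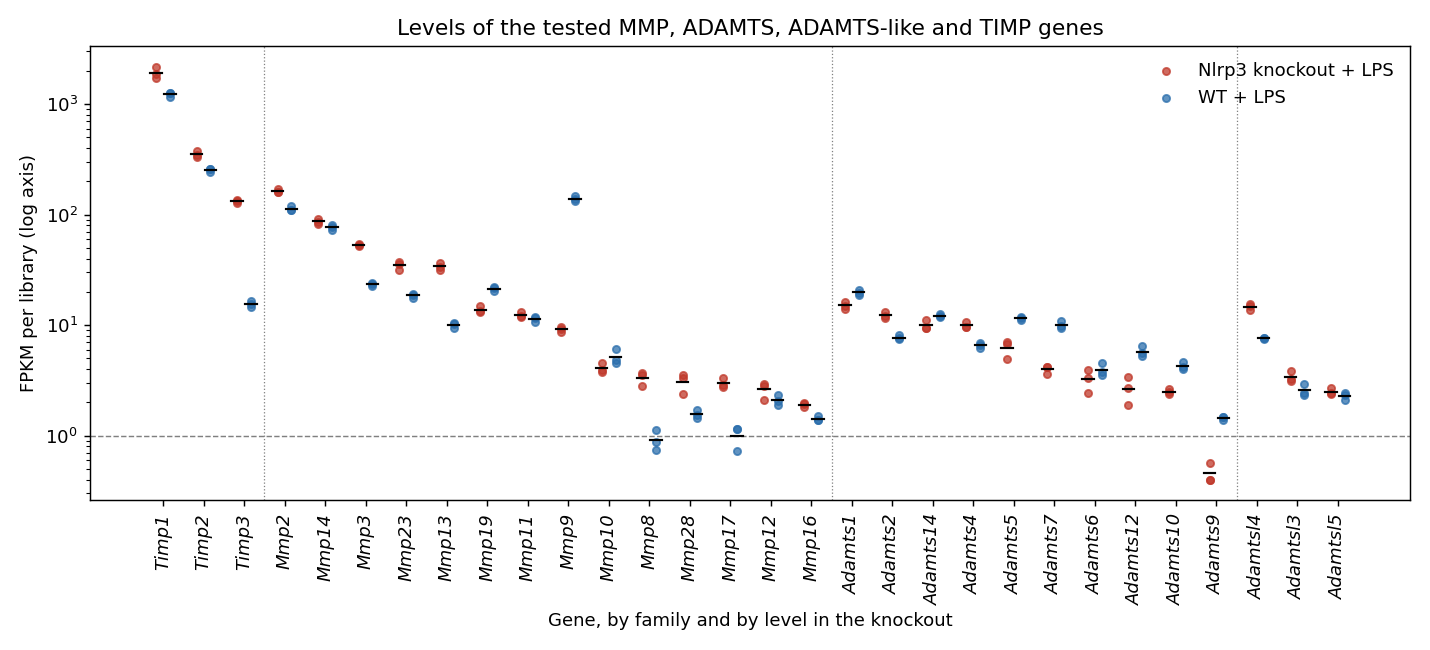
FPKM of each tested member in the 3 knockout (red, left) and 3 WT (blue, right) libraries, all with LPS, on a log axis; black bars are means and the dashed line marks an FPKM of 1. Timp1 has the highest level in both genotypes, and Timp3 and Mmp9 show the widest gaps, in opposite directions.

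**Figure D2:**
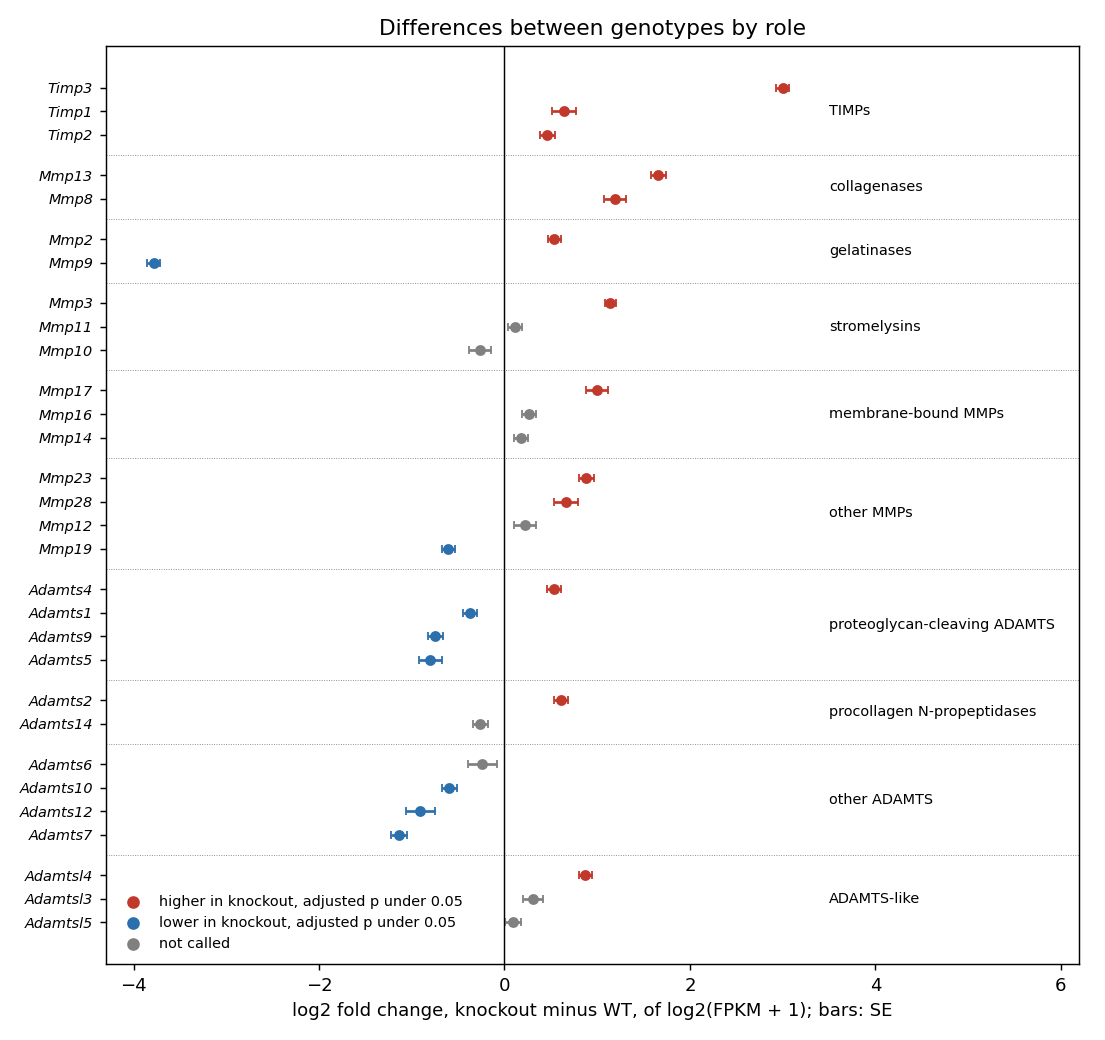
Log2 fold change (knockout minus WT, on log2(FPKM + 1)) of the 30 tested members by role, with SE bars; red points were called higher, blue points lower and grey points not called. The 3 TIMPs and both tested collagenases lie to the right of 0, and 6 of the 10 tested ADAMTS genes are blue. Mmp8 passed the expression filter through the knockout, Adamts9 through WT, and Mmp17 with 3 knockout and 2 WT libraries.

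Timp1 and Timp2 were the most abundant members in both genotypes, and the 3 inhibitors that were tested rose. Timp1, a secreted inhibitor that also binds the precursor of MMP9, had 1888, 1711 and 2182 FPKM in the knockout libraries, against 1269, 1168 and 1253 in WT. Every knockout library lay above every WT library, although the knockout libraries spread more widely. The log2 fold change was 0.64 ± 0.13 (adjusted p = 0.0157), and the call was lost without knockout replicate 1 (0.0685), without WT replicate 1, 2 or 3 (0.0655, 0.0724 and 0.0583) and without the filter on low values (0.111), at log2 fold changes of 0.60 to 0.66. Timp2, which inhibits MMPs and also brings the precursor of MMP2 to MMP14 at the cell surface, had 335.3, 344.3 and 373.4 FPKM in the knockout, against 259.7, 259.4 and 244.6 in WT. The groups did not overlap, and the log2 fold change of 0.46 ± 0.08 passed (adjusted p = 0.00816). Timp3, the inhibitor that binds to the matrix, had 132.5, 135.3 and 127.4 FPKM in the knockout and 15.6, 16.5 and 14.6 in WT. The libraries of each genotype lay close together and the groups far apart, with a log2 fold change of 3.00 ± 0.07 (adjusted p = 2.98e-06). Timp3 accounted for 5.52% ± 0.72 of the summed TIMP FPKM in the knockout and 1.04% ± 0.09 in WT (SD, n = 3 each), while Timp1 supplied 79.9% ± 1.6 of the sum in the knockout, against 82.0% ± 1.0 in WT. Timp4, expressed mainly in heart and brain, had no estimated count in any library. Timp1, Timp3 and Timp4 each overlap a synapsin gene on the opposite strand. Timp3 shares 1733 annotated exon bases with Syn3, which had at most 0.05 FPKM in any library, and Timp1 shares none with Syn1, which had 1.75 to 2.73.

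Of the interstitial collagenases, which cut fibrillar collagen within its triple helix, Mmp13 and Mmp8 rose. Mmp13 (chromosome 9, 7272514 to 7283331, plus strand) had 33.5, 36.8 and 31.7 FPKM in the knockout, against 9.51, 10.3 and 10.4 in WT. Its knockout values all lay far above those of WT, and the log2 fold change was 1.66 ± 0.08 (adjusted p = 3.64e-05). Mmp8, the collagenase first known from neutrophils, had 3.56, 3.67 and 2.84 FPKM in the knockout and 1.12, 0.74 and 0.87 in WT (log2 fold change 1.19 ± 0.12, adjusted p = 0.000762). Mmp8 passed the filter through the knockout libraries, so that its direction was built in. With edgeR on the estimated counts, which adds no pseudocount of 1 FPKM, its log2 fold change was 1.86. The granulocyte markers S100a8 and Csf3r were also higher in the knockout, S100a8 having passed the filter through it alone, while Camp was lower and 5 of the 13 granulocyte markers were at 0; their part in the Mmp8 result was not tested. Mmp1a and Mmp1b, the mouse relatives of human interstitial collagenase, were at or near 0, with at most 4 and 16 estimated counts in a library.

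The gelatinases, which digest denatured collagen and basement membrane, moved in opposite directions. Mmp9 (chromosome 2, 164940780 to 164955850, plus strand) had 8.61, 9.55 and 9.29 FPKM in the knockout, against 146.1, 137.8 and 132.7 in WT. The groups were far apart, with a mean in the knockout of 0.0659 times that of WT, a log2 fold change of -3.78 ± 0.07 and an adjusted p of 1.48e-06. Mmp9 is made by macrophages and osteoclasts as well as stromal cells; it fell in libraries in which the tested macrophage markers were higher, and the osteoclast markers were mixed. Of these, Itgb3 (log2 fold change -0.60) and Acp5 (-0.40, not called by edgeR) were lower, Nfatc1 (0.23) and Ctsk (0.12) were not called, and Tnfrsf11a, below the filter, was called higher by edgeR at 0.780 FPKM in the knockout and 0.393 in WT. Their part in the Mmp9 result was not tested. Mmp2, the constitutive gelatinase of stromal cells, had 161.6, 161.4 and 172.1 FPKM in the knockout and 111.0, 118.4 and 110.8 in WT, without overlap (log2 fold change 0.54 ± 0.07, adjusted p = 0.00217). By mean level Mmp9 held rank 16 among all members in the knockout and rank 3 in WT, above Mmp2.

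Summed over the 23 MMP genes, FPKM came to 419.5, 422.8 and 443.4 in the knockout and 433.6, 431.3 and 413.9 in WT, so that the groups overlapped. The makeup of the sum differed. Mmp9 supplied 2.05%, 2.26% and 2.10% of it in the knockout, against 33.7%, 32.0% and 32.1% in WT, while Mmp2 supplied 38.5% ± 0.3 in the knockout and 26.6% ± 0.9 in WT (SD, n = 3 each). Mmp3 supplied 12.4% ± 0.3 in the knockout and 5.51% ± 0.31 in WT, and Mmp13 7.95% ± 0.78 in the knockout and 2.36% ± 0.16 in WT. Mmp14 stood at 20.3% ± 0.5 in the knockout and 17.9% ± 0.6 in WT. The summed TIMP FPKM was 2356, 2190 and 2683 in the knockout and 1545, 1443 and 1512 in WT. The ratio of the TIMP sum to the MMP sum was 5.62 ± 0.44 in the knockout and 3.52 ± 0.16 in WT. These sums are of RNA levels and carry no test of their own, since they combine genes already tested.

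**Figure D3:**
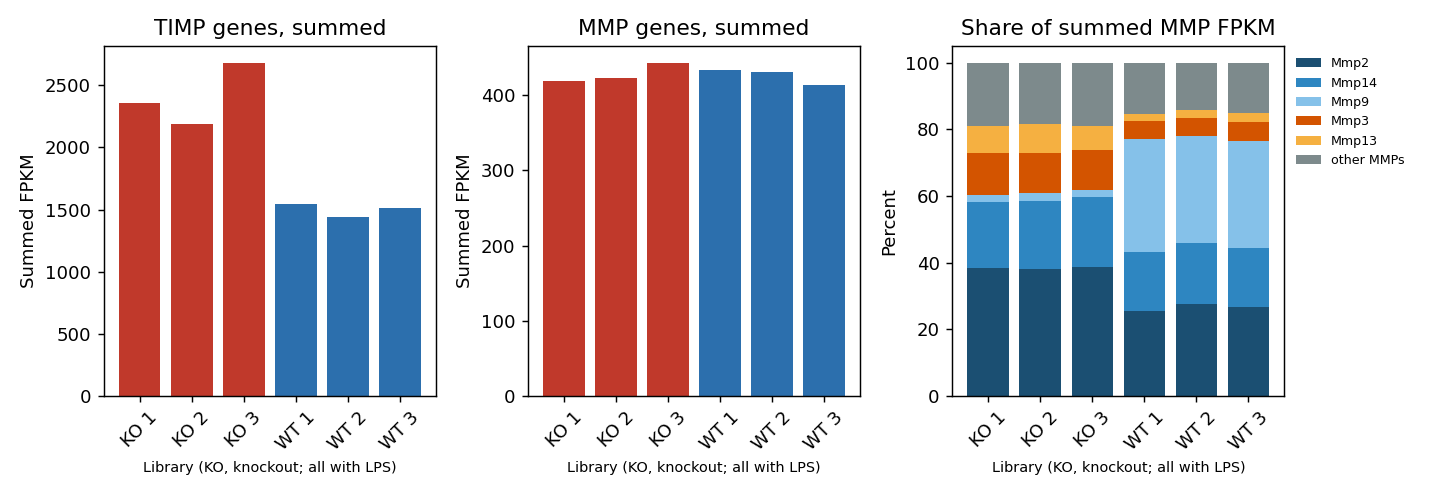
Summed FPKM of the 4 TIMP genes (left) and 23 MMP genes (middle) and percent of the summed MMP FPKM taken by named genes (right), per library, with the 3 knockout libraries to the left of the 3 WT libraries. MMP sums overlap between genotypes at 413.9 to 443.4, while the share of Mmp9 is 2.05% to 2.26% in the knockout and 32.0% to 33.7% in WT.

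Among the stromelysins 1 of 3 rose. Mmp3, which degrades proteoglycans and activates other MMP precursors, had 53.3, 51.6 and 54.1 FPKM in the knockout, against 23.6, 22.7 and 24.2 in WT, with both groups tight and well apart (log2 fold change 1.14 ± 0.06, adjusted p = 5.19e-05). Mmp10, its close relative, had 3.74, 4.59 and 3.91 FPKM in the knockout and 6.04, 4.55 and 4.79 in WT, and the groups overlapped (-0.27 ± 0.12, adjusted p = 0.186). Mmp11, a stromelysin activated inside the cell by furin, had 11.92, 11.98 and 13.27 FPKM in the knockout and 11.8, 10.6 and 11.7 in WT. The groups were separate by a small margin and the difference did not pass (0.11 ± 0.08, adjusted p = 0.371). Mmp3 and Mmp10 share sequence, so that reads could have been divided between them, and neither the strand setting nor the treatment of shared reads is given in the sources used here.

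**Figure D4:**
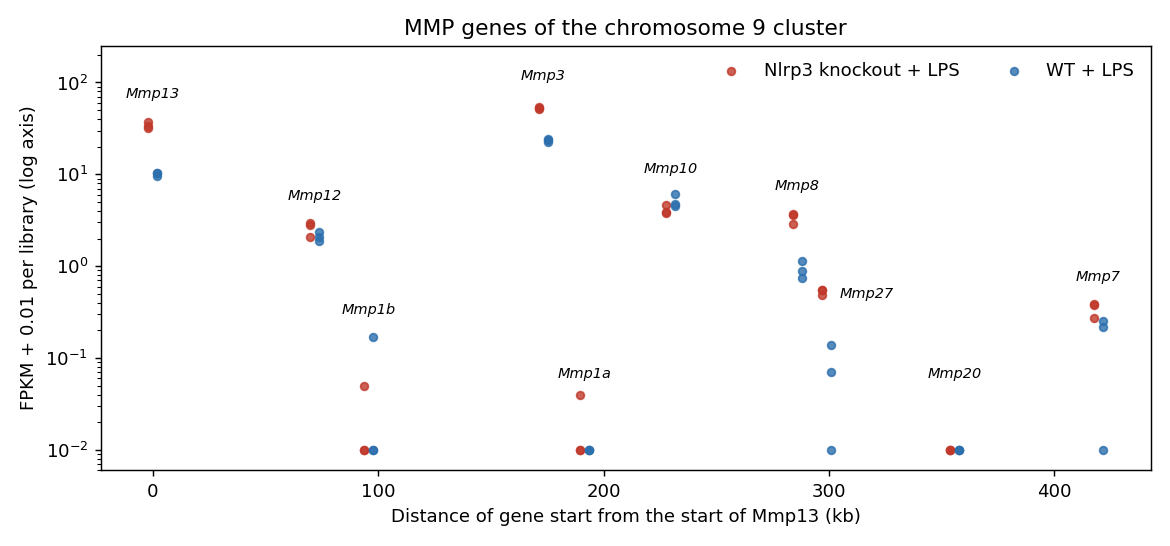
FPKM plus 0.01 (log axis) of the 10 MMP genes of the chromosome 9 cluster in knockout (red, left) and WT (blue, right) libraries, against the distance of each gene start from that of Mmp13 in kb. Mmp13, Mmp3 and Mmp8 are higher in the knockout, Mmp12 and Mmp10 overlap, and Mmp20 is at 0 throughout. Mmp8 passed the expression filter through the knockout.

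Of the cluster's 10 genes 5 were tested. Mmp13 at 0 kb, Mmp3 at 173.3 kb and Mmp8 at 285.9 kb were called higher, Mmp8 having passed the filter through the knockout libraries. Mmp12 at 71.9 kb and Mmp10 at 229.8 kb were not called. Mmp1b at 95.7 kb and Mmp1a at 191.6 kb, in the same stretch, were not tested, so that no order of calls along the chromosome can be read. Mmp12, the macrophage elastase, had 2.95, 2.81 and 2.09 FPKM in the knockout and 2.33, 2.06 and 1.88 in WT, so that the groups overlapped (0.22 ± 0.12, adjusted p = 0.271). The macrophage markers had a median log2 fold change of 0.94 in the same libraries, and their part in the Mmp12 result was not tested. Mmp27, next to Mmp8, was below the filter at 0.47, 0.54 and 0.54 FPKM in the knockout and 0.06, 0.13 and 0.00 in WT. Its knockout values lay above all WT values, but edgeR on the estimated counts did not call it (adjusted p = 0.0627). It was called higher by edgeR without WT replicate 3 (0.0201) or with the counts divided by 4 (0.0107), and by DESeq2 (0.00249). Mmp7, matrilysin, an enzyme of epithelia and macrophages, reached at most 0.38 FPKM in the knockout and 0.24 in WT (edgeR adjusted p = 0.506). Mmp20, the enamel protease, had no estimated count.

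The membrane-bound MMPs were led by Mmp14, the main cell surface collagenase and activator of the MMP2 precursor. It had 82.6, 85.9 and 92.1 FPKM in the knockout, against 76.5, 80.1 and 72.9 in WT; the knockout libraries were the higher, but the log2 fold change of 0.18 ± 0.07 did not pass (adjusted p = 0.149). Mmp17, which is held by a lipid anchor, had 2.88, 2.74 and 3.32 FPKM in the knockout and 1.14, 0.72 and 1.14 in WT, and rose (0.998 ± 0.118, adjusted p = 0.00157; 1.55 with edgeR). Mmp17 reached an FPKM of 1 in 3 knockout and 2 WT libraries, so that the filter may have favoured its direction without fixing it. Mmp16, a transmembrane enzyme, had 1.99, 1.93 and 1.82 FPKM in the knockout and 1.5, 1.39 and 1.39 in WT. It missed the threshold (0.26 ± 0.07, adjusted p = 0.0538), passed without knockout replicate 3 (0.0497), and was called higher by edgeR (log2 fold change 0.41, adjusted p = 0.0316). A further 3 membrane genes were below the filter. Mmp15 had 0.45, 0.28 and 0.32 FPKM in the knockout and 0.20, 0.09 and 0.12 in WT (edgeR adjusted p = 0.0515; 0.0335 without WT replicate 1 and 0.0396 with the counts divided by 4), and DESeq2 called it higher (0.0187). Mmp24 had 27, 28 and 12 estimated counts in the knockout and 0 in each WT library, so that it could enter the edgeR test only through the knockout. Against a floor of 12 estimated counts (about 3 fragments) over the WT group, it was at least 5.5-fold higher. The edgeR adjusted p was 0.0132, but 0.063 and 0.0561 without knockout replicate 1 or 2. Mmp24 shares 637 exon bases with BC029722 on the opposite strand, which had 20.1 to 24.4 FPKM, so that these few counts cannot be assigned with certainty. Mmp25, the lipid-anchored MMP of leukocytes, had 0, 0 and 8 estimated counts in the knockout and 30, 30 and 18 in WT (edgeR adjusted p = 0.125; 0.0135 without knockout replicate 3).

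The remaining MMPs also split. Mmp23, which is released from its membrane anchor by cleavage, had 36.0, 31.7 and 37.6 FPKM in the knockout, against 18.8, 17.8 and 19.1 in WT (0.88 ± 0.08, adjusted p = 0.00053). Mmp28, epilysin, had 2.39, 3.55 and 3.32 FPKM in the knockout and 1.72, 1.44 and 1.53 in WT (0.66 ± 0.13, adjusted p = 0.0131); the call was lost without WT replicate 2 or 3 (0.053 and 0.0526). Mmp28 shares 466 exon bases with 1700020L24Rik on the opposite strand, which had 1.01 to 2.03 FPKM in the knockout and 0.73 to 1.31 in WT. Mmp19, a secreted enzyme that cleaves basement membrane components, was the other MMP that fell, with 13.2, 13.3 and 14.8 FPKM in the knockout, against 21.7, 22.2 and 20.5 in WT (-0.61 ± 0.07, adjusted p = 0.00159). The groups did not overlap. It shares 789 exon bases with Tmem198b on the opposite strand, at 6.97 to 8.13 FPKM in the knockout and 8.49 to 10.6 in WT. Mmp21, known for its role in left-right asymmetry, had no estimated count.

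Of the ADAMTS enzymes that cleave aggrecan and versican 3 were lower and 1 was higher. Adamts9, among the lower, passed the filter through the WT libraries alone, so that its direction was built in. Adamts5, the main aggrecanase of mouse cartilage, had 6.78, 7.10 and 4.93 FPKM in the knockout, against 11.5, 11.9 and 11.2 in WT (log2 fold change -0.80 ± 0.13, adjusted p = 0.00555). Adamts1, 53.1 kb from Adamts5 on chromosome 16 and on the same strand, had 14.1, 16.3 and 14.9 FPKM in the knockout and 18.9, 19.7 and 20.7 in WT. The groups did not overlap and it was called lower (-0.37 ± 0.08, adjusted p = 0.0173), a call that was lost without knockout replicate 1 (0.0701) and without WT replicate 1, 2 or 3 (0.0502, 0.0623 and 0.074). Adamts9, a versican-cleaving enzyme, had 0.40, 0.57 and 0.40 FPKM in the knockout and 1.46, 1.39 and 1.46 in WT (-0.74 ± 0.09, adjusted p = 0.0014; -1.66 with edgeR). Adamts4, an aggrecanase induced by inflammatory cytokines in cartilage, went the other way, with 9.63, 10.8 and 9.59 FPKM in the knockout and 6.65, 6.91 and 6.25 in WT (0.53 ± 0.08, adjusted p = 0.00359). Adamts4 supplied 14.8% ± 0.1 of the summed ADAMTS FPKM in the knockout and 7.90% ± 0.36 in WT, and Adamts5 9.27% ± 1.43 in the knockout and 13.8% ± 0.4 in WT (SD, n = 3 each). Adamts8, Adamts15 and Adamts20 of this group had at most 0.07 FPKM in any library.

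The procollagen N-propeptidases, which trim fibrillar procollagens before fibres form, included 1 tested gene that rose and 1 that was not called. Adamts2 had 11.63, 12.03 and 13.28 FPKM in the knockout, against 8.14, 7.62 and 7.42 in WT (0.61 ± 0.08, adjusted p = 0.00196). Adamts14 had 9.44, 11.1 and 9.49 FPKM in the knockout and 12.1, 12.7 and 11.8 in WT; the groups did not overlap, but the difference did not pass (-0.26 ± 0.08, adjusted p = 0.072; 0.0317 without knockout replicate 2). Adamts3, which also acts on the lymphatic growth factor VEGFC, was below the filter at 0.51, 0.74 and 0.51 FPKM in the knockout and 0.15, 0.19 and 0.30 in WT. With edgeR it was higher (log2 fold change 1.45, adjusted p = 0.0202), and the call was lost without knockout replicate 2 (0.0667) or WT replicate 1 or 2 (0.0635 and 0.075). Adamts2 was above Adamts14 in every knockout library and below it in every WT library.

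Among the other ADAMTS genes 3 fell. Adamts7 and Adamts12, related enzymes that bind and cleave the cartilage protein COMP, were both lower. Adamts7 had 3.65, 4.22 and 4.2 FPKM in the knockout, against 9.51, 9.76 and 10.9 in WT (-1.14 ± 0.09, adjusted p = 0.00025), the ADAMTS gene with the largest absolute log2 fold change in limma. It shares 122 exon bases with Tbc1d2b on the opposite strand, which had 9.06 to 9.22 FPKM in the knockout and 15.3 to 17.3 in WT. Adamts12 had 2.70, 3.36 and 1.89 FPKM in the knockout and 5.65, 6.41 and 5.23 in WT (-0.91 ± 0.16, adjusted p = 0.00878). Adamts10, which binds fibrillin microfibrils, had 2.62, 2.50 and 2.36 FPKM in the knockout and 4.62, 4.01 and 4.2 in WT (-0.59 ± 0.08, adjusted p = 0.00274). Adamts6, the closest relative of Adamts10, overlapped between the groups at 3.29, 3.96 and 2.42 FPKM in the knockout and 4.53, 3.56 and 3.74 in WT (-0.24 ± 0.15, adjusted p = 0.35). Adamts16, below the filter, had 128, 140 and 119 estimated counts in the knockout, against 8, 12 and 18 in WT, equal to 0.26 to 0.31 FPKM in the knockout and 0.02 to 0.04 in WT; edgeR called it higher (log2 fold change 3.27, adjusted p = 0.00133). Adamts13, the protease of von Willebrand factor, and Adamts19 had no estimated count, and Adamts17 and Adamts18 had at most 8 in a library.

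Of the ADAMTS-like genes Adamtsl4, whose product associates with fibrillin microfibrils, had 13.7, 14.9 and 15.5 FPKM in the knockout, against 7.44, 7.66 and 7.62 in WT (0.87 ± 0.07, adjusted p = 0.000304). The WT libraries were close together and each knockout library was well above them. Adamtsl3 had 3.27, 3.88 and 3.12 FPKM in the knockout and 2.34, 2.94 and 2.42 in WT, which did not overlap and did not pass (0.31 ± 0.11, adjusted p = 0.0948). Adamtsl5 overlapped at 2.38, 2.71 and 2.43 FPKM in the knockout and 2.33, 2.42 and 2.12 in WT (0.09 ± 0.08, adjusted p = 0.501). Adamtsl1 was below the filter at 0.30 to 0.47 FPKM in the knockout and 0.38 to 0.47 in WT (edgeR adjusted p = 0.464), and Adamtsl2 had at most 8 estimated counts.

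Ranked by mean FPKM in the knockout, the members followed the order Timp1, Timp2, Mmp2, Timp3, Mmp14, Mmp3, Mmp23 and Mmp13, in which only the neighbours Mmp23 and Mmp13 overlapped in their library values. In WT the order was Timp1, Timp2, Mmp9, Mmp2, Mmp14, Mmp3, Mmp19, Adamts1 and Mmp23, in which Mmp19 overlapped Adamts1 and Adamts1 overlapped Mmp23. Timp3 held rank 4 in the knockout and rank 10 in WT. In the knockout its lowest library (127.4 FPKM) exceeded the highest Mmp14 library (92.1).

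Genes that switch these proteases on or clear them were compared from a list of 24, of which 16 were tested, 7 were higher and 4 lower, with a median log2 fold change of -0.05. The parts of the plasminogen system diverged: the urokinase receptor Plaur (34.4 ± 1.7 FPKM in the knockout and 11.8 ± 1.1 in WT; log2 fold change 1.47, adjusted p = 7.99e-05) rose, and tissue plasminogen activator Plat (5.04 ± 0.43 FPKM in the knockout and 13.3 ± 0.7 in WT; -1.25, adjusted p = 0.000131) fell. Lcn2, which forms a complex with MMP9, rose with a mean of 262.7 ± 32.3 FPKM in the knockout and 87.6 ± 6.7 in WT (1.57, adjusted p = 0.000188), opposite to Mmp9. Spock2, a testican proteoglycan, had 2.83 ± 0.08 FPKM in the knockout and 0.920 ± 0.104 in WT, but it passed the filter through the knockout libraries, so that its direction was built in. Prss23, a secreted serine protease (0.97, adjusted p = 0.00125), and Pcsk6, a proprotein convertase (0.90, adjusted p = 0.000349), also rose.

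The substrates were mostly lower. Of 23 listed matrix proteins 17 were tested, of which 11 were lower and 2 higher, with a median log2 fold change of -0.61. The cartilage collagen Col2a1 had 14.04 ± 0.55 FPKM in the knockout and 0.280 ± 0.087 in WT, and passed the filter through the knockout libraries alone; of the other 16, 11 fell and 1, Fn1, rose. Those that fell included the proteoglycan Dcn (3.26 ± 0.38 FPKM in the knockout and 17.4 ± 0.7 in WT; -2.12, adjusted p = 2.4e-05) and the microfibril protein Fbn1 (48.7 ± 4.9 FPKM in the knockout and 177.4 ± 14.2 in WT; -1.85, adjusted p = 5.69e-05). Nid1, a linker of basement membranes, fell to 129.7 ± 10.6 FPKM in the knockout, against 293.0 ± 10.9 in WT (-1.17, adjusted p = 0.000214). Acan (aggrecan) had an FPKM of 0 in every library and Comp averaged 0.240 in the knockout and 0.200 in WT, so that named substrates of the aggrecanases and of ADAMTS7 were at or near 0, while Vcan (versican) averaged 24.0 ± 8.3 in the knockout and 27.0 ± 2.2 in WT (adjusted p = 0.59). Of 11 chondrocyte markers 3 were tested, of which Col2a1 was higher in the knockout and Sox9 lower, and both passed the filter through 1 genotype.

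Related protease families were listed for comparison. Of 11 genes of the ADAM family, which includes membrane proteases that release ectodomains, 8 were tested, with a median log2 fold change of -0.07. Adam8, expressed in leukocytes, rose from 13.6 ± 0.3 FPKM in WT to 30.6 ± 1.0 in the knockout (log2 fold change 1.11, adjusted p = 5.46e-05). Adam12 and Adam19 fell, while Adam23, which passed the filter through WT alone, was lower. Of 14 cysteine and serine proteases 10 were tested, of which 6 were higher and the other 4, all lysosomal cathepsins, were not called, with a median log2 fold change of 0.58 over the 10. Of the 6, Mcpt8 and Gzmd passed the filter through the knockout libraries. Prss35 (8.08 ± 0.66 FPKM in the knockout and 0.977 ± 0.286 in WT) reached an FPKM of 1 in 3 knockout and 2 WT libraries. Of the other 7 tested genes 3 rose. The granzyme Gzme was among these 3 (1.22, adjusted p = 0.000633). Ctss, the cathepsin of antigen-presenting cells, which is also in the macrophage list, had 45.5 ± 2.2 FPKM in the knockout and 22.6 ± 1.5 in WT (0.98, adjusted p = 0.000247).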

How the data were processed

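Polyadenylated RNA of 6 libraries was sequenced as a stranded paired-end library, per the labels' protocols. The submitters' processing notes name cutadapt 1.9, HISAT2 2.0.4, StringTie 1.3.4d and the GRCm38 build. How reads were counted, with which annotation release and whether by strand, is not given in the sources used here. The deposited table holds FPKM and estimated counts computed by the authors. The estimated counts kept 1 factor per library to FPKM (100% of ratios in 5837 genes within 1%), and about 4 of them stand for 1 fragment. Of nonzero estimated counts up to 16, 44.4% were multiples of 4, so that numbers of fragments are approximate.

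Genes that reached 1 FPKM in 3 or more libraries were compared on log2(FPKM + 1), computed here from the deposited FPKM, with limma 3.58.1 (R 4.3.3, intensity trend, two-sided, Benjamini-Hochberg over all tested genes). The alternatives were edgeR 4.0.16 and DESeq2 1.42.0 on the estimated counts, other pseudocounts, filters and scaling, a replicate block and leaving out each library. A floor of 12 estimated counts (about 3 fragments) over a group covers counting error only. Every member was named, with values where it passed the filter, reached an FPKM of 0.3 or was called by edgeR, and of each other list at most 6 called genes with the largest absolute log2 fold change; Untested markers, Nfatc1, Ctsk, Cd200, Fn1, Vcan, Acan, Comp and a few low members were named after their values were seen. Members and gene lists were chosen with earlier results of these data known. Gene coordinates are those of the deposited table and overlaps come from GENCODE M21. Unstimulated cultures were not analysed here.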

Additional observations from a re-analysis of the deposited data

How the results depend on the processing

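The number of members called higher in the knockout was 13 and ranged from 10 to 19 over the alternative filters, pseudocount, scaling and tests, and from 11 to 14 when each library was left out in turn. The number called lower was 8, with 6 to 8 over the alternatives and 6 to 9 with 1 library left out. None of the 39 members that limma or edgeR tested changed direction under the settings in which it had a value; the other 12 were not compared. Of the 21 called members 18 kept their call under each in which they were tested; the exceptions were Timp1, Adamts1 and Mmp28. The titles give both genotypes Day 1, 2 and 3, whereas the treatment label gives 1 day for all, so the labels do not settle whether same-numbered libraries share a day. Deviations of same-numbered libraries correlated at 0.02, 0.168 and 0.096. With the day in the titles as a replicate block, limma called 13 members higher and 8 lower, and no tested member changed its call. Below the filter, the calls of Mmp15, Mmp24, Mmp25, Mmp27 and Adamts3 changed with the test or the library left out. Where a group had no estimated count, this depth allows a level of up to 12 estimated counts (about 3 fragments) over the group.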
